A study of Mus musculus with 6 samples.

Results

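The 10 integrin subunit genes described here were the rows with the symbols Itga1, Itga3, Itga5, Itga8, Itga11, Itgav, Itgb1, Itgb3, Itgb5 and Itgb6, of 26 integrin subunit genes and between 30828 and 32285 gene rows in the 6 count tables. Each table was 1 single-cell library of mouse lung fibroblasts (FBs) or of alveolar organoids, made from the pooled cells of 3 mice for each cell type. Male Pdgfra-GFP reporter mice aged 10 to 14 weeks, in which cells with an active Pdgfra gene carry a nuclear green protein, received by oropharyngeal aspiration either PBS (50 ul) or bleomycin, an agent that injures the alveoli and is followed by fibrosis, and GFP+ cells were sorted by FACS. In the single-dose arm lungs were taken on day 14 after 1 dose, given as 2 U/Kg in the treatment protocol and as 4 U/Kg in the label of the bleomycin library. In the repetitive arm PDGFRa-EGFP mice were dosed weekly for 3 weeks with PBS or with bleomycin, at 1 U/Kg for the first and second dose and 0.5 U/Kg for the third, and lungs were taken 2 weeks after the last dose. In the organoid arm tomato+ alveolar type 2 cells (AEC2s) from other donors, given as SpcCreER in the labels and as SpcCreER × Rosa-td26 in the study's methods, were combined with GFP+ FBs and kept in matrigel for 2 weeks. In these donors tamoxifen (2 doses of 1 mg/Kg) switches on a tdTomato reporter in cells that use the surfactant protein C gene. The study describes their lungs as adult, and gives no age in weeks or sex for these donors in particular. The labels give the mixture as 10 to 1, in that order, while the study's methods put the FBs in excess, so the ratio is uncertain. The FBs came from PBS mice (normal organoids) or from mice given 2 U/Kg bleomycin 14 days before (fibrogenic organoids), and the AEC2 donors of both received tamoxifen and no bleomycin. The GFP sort selects cells that keep Pdgfra active, so other mesenchymal cells were measured only where they passed that gate, and 91 to 1403 barcodes per lung library were nevertheless of other cell types.

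Integrins are receptors of the cell surface built from a pair of chains, an α and a β subunit, that link extracellular matrix outside the cell to talin, kindlin and the actin cytoskeleton inside it. The β chain encoded by Itgb1 pairs with many α chains, among them the collagen receptors encoded by Itga1 and Itga11, the laminin receptor encoded by Itga3, the fibronectin receptor encoded by Itga5 and the nephronectin receptor encoded by Itga8. The αv chain, encoded by Itgav, pairs with the chains encoded by Itgb1, Itgb3, Itgb5 and Itgb6, binds ligands with an arginine-glycine-aspartate motif, and some of these pairs release TGF-β from its latent complex. In the lung Itgb6 is known as an epithelial gene and Itga8 as a gene of alveolar FBs.

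The genes that the comparisons turn on lie at 2:12106632-12301985 (Itga8), 13:114958079-115101964 (Itga1), 15:103344286-103366791 (Itga5) and 2:60598292-60722603 (Itgb6) in build GRCm38.p6. Windows of 300 bases, from 250 bases before to 50 after a RefSeq start in that build, were held for 9 of the 10 genes, and those of the 4 genes are printed 5′ to 3′ on the gene's own strand, all 4 being on the minus strand. They lie at chr2:12301895-12302194, chr13:115101915-115102214, chr15:103366742-103367041 and chr2:60722554-60722853, and capitals mark a match to the Sp1 letters GGGCGG on either strand.
Itga8: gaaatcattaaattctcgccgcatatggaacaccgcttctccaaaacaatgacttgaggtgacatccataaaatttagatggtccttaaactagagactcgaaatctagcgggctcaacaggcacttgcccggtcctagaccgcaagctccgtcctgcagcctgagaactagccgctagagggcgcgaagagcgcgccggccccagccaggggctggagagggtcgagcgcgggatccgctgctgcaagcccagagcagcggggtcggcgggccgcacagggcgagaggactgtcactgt
Itga1: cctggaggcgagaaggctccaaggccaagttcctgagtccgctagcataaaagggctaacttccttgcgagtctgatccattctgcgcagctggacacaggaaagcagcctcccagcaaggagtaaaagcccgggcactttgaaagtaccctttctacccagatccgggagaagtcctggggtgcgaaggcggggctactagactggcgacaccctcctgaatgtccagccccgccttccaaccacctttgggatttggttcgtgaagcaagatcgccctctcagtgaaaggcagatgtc
Itga5: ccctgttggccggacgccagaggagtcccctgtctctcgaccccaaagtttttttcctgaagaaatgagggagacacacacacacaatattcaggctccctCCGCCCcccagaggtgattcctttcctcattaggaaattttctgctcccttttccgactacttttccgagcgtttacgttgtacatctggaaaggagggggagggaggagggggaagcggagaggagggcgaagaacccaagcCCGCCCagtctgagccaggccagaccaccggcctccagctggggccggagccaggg
Itgb6: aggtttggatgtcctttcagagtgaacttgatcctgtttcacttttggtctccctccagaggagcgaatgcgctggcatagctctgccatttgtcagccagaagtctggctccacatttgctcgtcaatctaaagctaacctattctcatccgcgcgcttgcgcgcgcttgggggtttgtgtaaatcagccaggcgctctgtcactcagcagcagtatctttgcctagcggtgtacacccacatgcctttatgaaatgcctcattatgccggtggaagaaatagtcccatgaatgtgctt
The Itga5 window held 2 matches to the Sp1 letters, which stood in 35.7% of all 32851 windows of this length. None of the 4 windows printed held the AP-1 letters TGANTCA (7.81% of all windows), the TEAD letters CATTCC (14.7%), the SMAD letters CAGACA (21.0%) or a CArG box (1.63%), searched on both strands. A second RefSeq start of Itgb6 has its own window, at chr2:60673644-60673943, which is not printed and held 1 match to a CArG box. A match is a description of letters, and the absence of one in this window says nothing about the factor.

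The libraries held 1015 to 10737 barcodes and 7201081 to 238618743 UMIs (molecules counted once each), with a median of 2478 UMIs per barcode in the repetitive bleomycin library and 6780.5 to 10711 in the other lung libraries. In the organoids the median was 36841 UMIs in the normal and 4289.5 in the fibrogenic library. Levels are CPM, the count of a gene scaled to 1000000 UMIs, summed over the cells of a group in 1 library, and their 95% intervals (exact Poisson, or exact binomial for a fold) cover counting error only. With 1 library per condition there was no test within an arm, and library and condition cannot be told apart. A fit of bleomycin over both lung arms, which would take the different dosing schemes as replicates, was not made. A difference is called here where the log2 ratio after adding 1 CPM to each level is at least 1 in size, and counts are read against the share of all genes with at least 50 UMIs over both groups that pass the same limit. The subunits and the lists of related genes below were chosen with earlier results of these data known, so these counts describe and give no test of enrichment. The libraries count transcript ends and not whole transcripts, so levels of different genes are not ranked. In a sum over cells, fewer cells that use a gene and less RNA of it per cell cannot be told apart. All 8 FB markers, Pdgfra and Col1a1 among them, were present in the FBs of every library. Pairs of libraries from the same arm shared 2, 28 and 13 cell barcodes.

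In the single-dose arm 815 FBs of the bleomycin library were compared with 900 of the PBS library. Itga1 and Itga5 were called higher after bleomycin, which made 2 of the 10 subunits against 8.14% of all genes tested. Itga8 was called lower, 1 of 10 against 3.7% of all genes. In the repetitive arm, with 8248 FBs of the bleomycin and 5384 of the PBS library, Itga1 and Itgb3 were called higher (2 of 10, against 6.51% of all genes) and Itga8 lower (1 of 10, against 1.83%). The 6 subunits with at least 50 UMIs had a median log2 ratio of 0.71 in the single-dose arm, where all genes tested had 0.08, and all 10 passed that limit in the repetitive arm, with a median of 0.24 against 0.11.

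Itga1, a chain of a collagen and laminin receptor, stood at 45.3 CPM (95% interval 41.3 to 49.5) in the FBs of the single-dose bleomycin library and at 9.89 CPM (7.55 to 12.7) in those of its PBS library, a 4.58-fold difference (3.49 to 6.09). The repetitive levels of Itga1 were 72.6 CPM (70.4 to 74.8) after bleomycin and 13.5 CPM (12.6 to 14.5) after PBS, a 5.36-fold difference (4.97 to 5.79). In each arm the bleomycin library was above its PBS library, with no overlap of the counting intervals. Endothelial cells also use Itga1: the 39 endothelial barcodes of the single-dose PBS library held it at 459 CPM, and the 130 in each repetitive library at 770 CPM (PBS) and 503 CPM (bleomycin). In the repetitive PBS library myeloid, T and NK, and epithelial barcodes held Itga1 at 15.6, 14.5 and 14.7 CPM, no lower than FBs, and in the repetitive bleomycin library myeloid, T and NK, and plasma cell barcodes held it at 37.6, 46.2 and 42.5 CPM, below FBs. The part of RNA from outside the cells in these levels was not tested. Over every barcode of a library, these cells included, the log2 ratio of Itga1 was 0.64 in the single-dose and 1.00 in the repetitive arm, against 2.09 and 2.34 over FBs. The single-dose value over every barcode thus fell short of the limit for a call. The 8 endothelial markers summed to 68.2 CPM in the FBs of the single-dose PBS library and to 119 CPM in those of the bleomycin library, and to 35.6 and 59.5 CPM in the repetitive arm, led each time by Ramp2. Ramp2 alone was at 48.6 and 73.1 CPM and at 25.9 and 49.3 CPM in the same order. Of the repetitive FB groups described below, MatrixFB-like cells held Ramp2 at 156 and 123 CPM and remaining FBs at 15.1 and 31.1 CPM (PBS first). In the single-dose arm the endothelial markers other than Ramp2 also summed to more after bleomycin, while in the repetitive arm the difference lay almost all in Ramp2. What part of these sums came from endothelial cells was not tested. The 8 myeloid markers, led by Lyz2, also summed to more after bleomycin, 55.4 and 123 CPM in the single-dose and 17.4 and 47.6 CPM in the repetitive arm (PBS first), as did the 6 plasma cell markers, led by Igkc, with 6.43 and 15.2 CPM and 4.36 and 61.8 CPM. In the single-dose arm neutrophil markers (49.3 and 5.07 CPM) and T and NK cell markers (24.1 and 12.2 CPM) summed to less after bleomycin. In the repetitive arm both summed to more, at 2.40 and 6.16 CPM and at 5.27 and 8.51 CPM. The part of these cell types in the Itga1 ratios was not tested. Where FBs with 3 or more UMIs of markers of other cell types were left out, the log2 ratio of Itga1 was 1.19 in the single-dose arm (345 and 144 cells left) and 2.38 in the repetitive arm.

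Itga8, which was the subunit with the highest ratio of PBS to bleomycin, stood at 147 CPM (140 to 155) in single-dose bleomycin FBs and at 343 CPM (328 to 358) in PBS FBs, 2.33-fold lower (2.18 to 2.49) after bleomycin. Repetitive dosing gave 530 CPM (524 to 536) after bleomycin and 1135 CPM (1126 to 1143) after PBS, 2.14-fold lower (2.11 to 2.17). Each bleomycin library was below the PBS library of its own arm, while the repetitive bleomycin level was above the single-dose PBS level, so levels were comparable only within an arm. Without FBs carrying 3 or more UMIs of markers of other cell types, the log2 ratio of Itga8 was −0.94 in the single-dose arm, short of the limit for a call, and −1.04 in the repetitive arm. The 8 epithelial markers, led by Scgb1a1 in the PBS library, summed to 795 CPM in single-dose PBS FBs and to 96.3 CPM in bleomycin FBs. They went the other way in the repetitive arm, with 43.7 CPM after PBS and 92.7 CPM after bleomycin, and the part of these differences in the results was not tested.

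Itga5, the α chain of the main fibronectin receptor, was higher in the single-dose arm, at 30.6 CPM (27.4 to 34.2) after bleomycin and 4.95 CPM (3.34 to 7.06) after PBS, a 6.19-fold difference (4.25 to 9.33). In the repetitive arm it was at 31.3 CPM (29.9 to 32.8) after bleomycin and 25.1 CPM (23.8 to 26.4) after PBS, a 1.25-fold difference (1.16 to 1.34) that did not reach the limit for a call. Whether the arms differ was not tested.

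Itgb1, Itgav and Itgb5 stayed within the limit in both arms. Itgb1, the common partner, was at 307 CPM after single-dose bleomycin and 188 CPM after PBS (1.64-fold, 1.53 to 1.75), and at 573 and 554 CPM in the repetitive arm (1.03-fold, 1.02 to 1.05). Itgav was at 49.2 and 29.7 CPM in the single-dose arm (1.66-fold, 1.40 to 1.98) and at 91.9 and 93.2 CPM in the repetitive arm (0.986-fold, 0.950 to 1.02). Both were higher after single-dose bleomycin by less than the limit for a call, and whether the arms differ was not tested. Itgb5, whose product pairs with αv, was higher after bleomycin in both arms, at 244 and 198 CPM (1.23-fold, 1.15 to 1.32) and at 231 and 149 CPM (1.55-fold, 1.51 to 1.60), also below that limit.

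The remaining subunits were sparse in FBs. Itgb3 had 34 UMIs in single-dose bleomycin FBs (3.25 CPM) and 9 in PBS FBs (1.48 CPM), and in the repetitive arm it stood at 3.12 CPM (2.69 to 3.61) after bleomycin and 1.04 CPM (0.794 to 1.33) after PBS, a 3.01-fold difference (2.24 to 4.09). Its log2 ratio in the repetitive arm, 1.02, lay just past the limit, and 6 of the alternative settings put it below. Itga11, another collagen receptor chain, was at 2.30 and 1.32 CPM in the single-dose and 5.75 and 3.45 CPM in the repetitive arm. Itga3 was at most 1.67 CPM in the FBs of the 4 lung libraries, with fold intervals that included no difference in each arm. Itgb6 had 0 UMIs in the FBs of both single-dose libraries, which allows up to 0.287 CPM after bleomycin and 0.495 CPM after PBS, and it was at 0.938 and 1.79 CPM in the repetitive arm.

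The FB clusters were formed without integrin, ligand or adhesion genes and named by marker genes, none of which is an integrin, so the subunits could be described across them. MyoFB-like cells, named for Acta2, Tagln, Cthrc1 and other genes of contractile, matrix-forming cells, numbered 109 in the single-dose and 399 in the repetitive bleomycin library, and 10 and 2 in the PBS libraries. MatrixFB-like cells, named for Pi16, Dcn, Col14a1 and other adventitial genes, numbered 1674 in the repetitive bleomycin and 555 in the PBS library. In the single-dose arm the MatrixFB-like class held 14 PBS cells, so cluster F, with 91 bleomycin and 59 PBS cells, was compared in its place. It had all 7 MatrixFB markers raised, but was led by Wt1, a mesothelial gene on another marker list, and was left unnamed. The other FBs, here the remaining FBs, left out 105 bleomycin and 3 PBS mural-like cells of the repetitive arm as well, and came from clusters with raised LipoFB (lipid-storing alveolar FB) or injury markers or with too few raised markers for a name. In each arm most clusters of remaining FBs mostly held 1 library. Single-dose clusters A, C and D had 2 to 11 bleomycin cells beside 254 to 291 PBS cells, and B and E had 0 and 2 PBS cells beside 296 and 208 bleomycin cells. Repetitive clusters A, B, C and I had 17 to 35 PBS cells beside 745 to 1811 bleomycin cells, and D, E and L had 7 to 29 bleomycin cells beside 412 to 1391 PBS cells. The plot of levels by FB group shows each subunit in these groups.

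**Figure D1:**
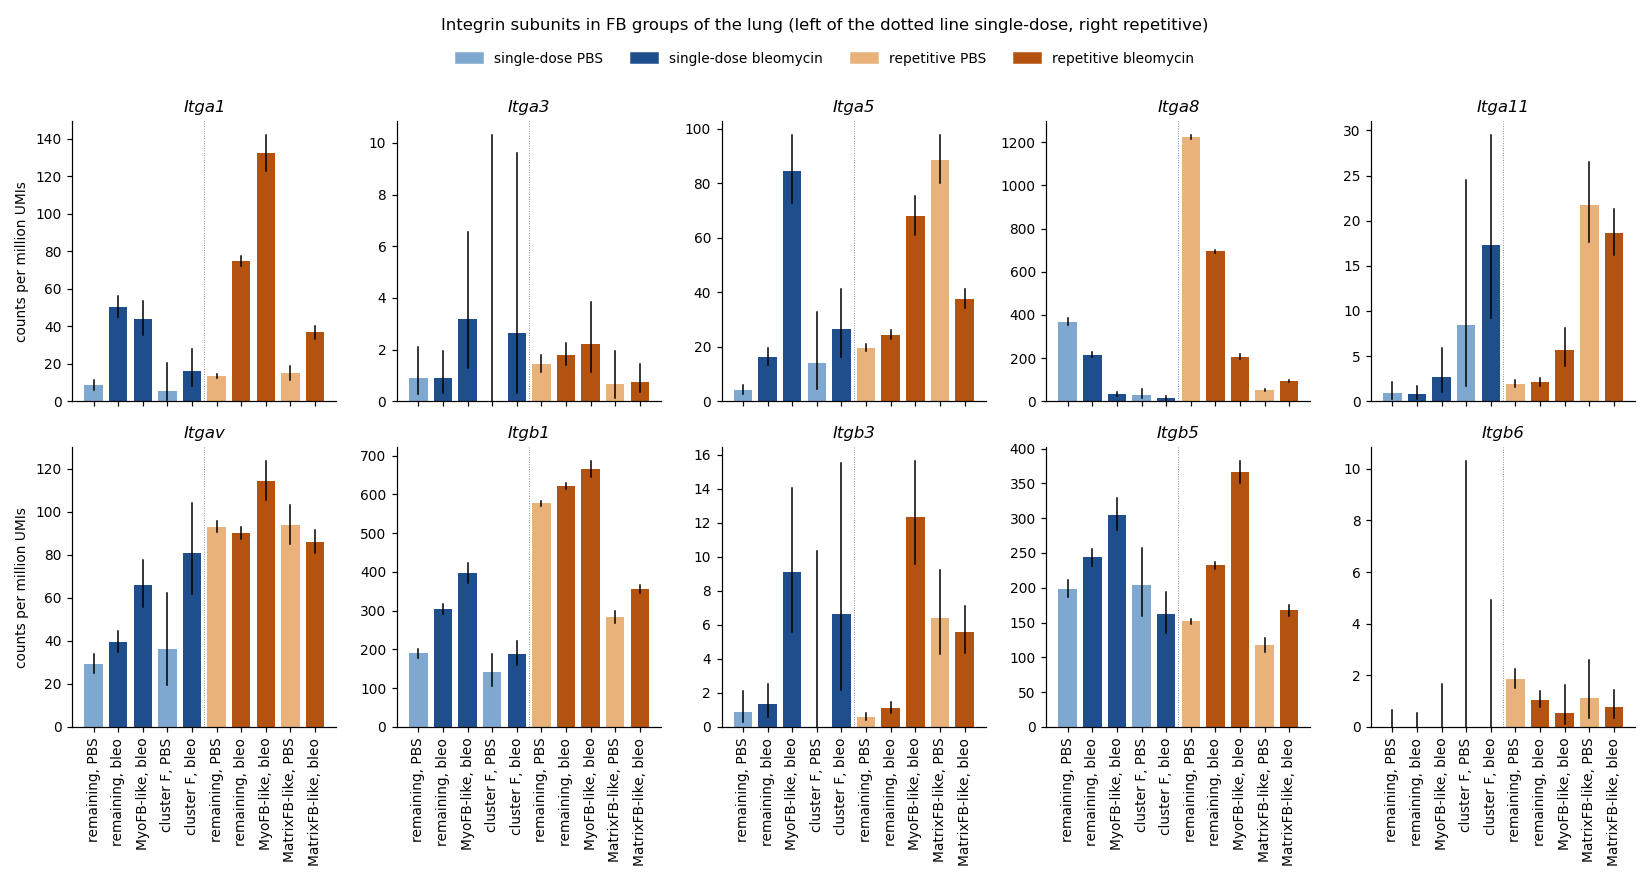
Levels of the 10 integrin subunits in FB groups of the 4 lung libraries, in CPM on a linear axis that starts at 0 and differs between panels. Bars are 1 library each and black lines are exact 95% Poisson intervals for counting error. Itga1 is higher in remaining FBs after bleomycin in both arms (50.4 against 8.43 CPM and 74.9 against 13.3 CPM), Itga8 is lower, and Itga5 and Itgb3 are higher in MyoFB-like cells than in remaining FBs of the same library.

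Among remaining FBs alone, 523 after bleomycin and 817 after PBS in the single-dose arm, Itga1 and Itga5 were again past the limit (2 of 10 subunits higher, against 6.27% of all genes) and none was lower (3.2%). Itga1 was at 50.4 and 8.43 CPM (log2 ratio 2.45) and Itga5 at 16.1 and 3.95 CPM (1.79). Itga8 was at 214 and 367 CPM, a log2 ratio of −0.77 that did not reach the limit. Thus the Itga1 difference was as large over the remaining FBs as over all FBs, and the Itga8 difference was smaller. The clusters of these cells mostly held 1 library, so neither is a difference within a cluster. In the repetitive arm, with 6070 and 4824 remaining FBs, Itga1 alone was past the limit (1 of 10, against 6.04% of all genes) and none was lower (1.63%). Itga1 stood there at 74.9 and 13.3 CPM (2.40), and Itga8 at 694 and 1226 CPM (−0.82). Where each cell counted equally, Itga8 had a log2 ratio of −1.02 in these cells. Clusters A and B, shallow clusters with AY036118 and Cdk8 among their leading genes, gave 1811 and 1641 of the bleomycin cells (medians of 1182 and 1506 UMIs) and 22 and 35 of the PBS cells. Over barcodes with at least 2000 UMIs, 3244 and 4752 cells, the log2 ratio was 2.43 for Itga1 and −0.79 for Itga8.

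The share of remaining FBs with an Itga8 UMI gave the same order in cells thinned to 2000 UMIs. In the repetitive arm it was 97.3% after PBS and 65.4% after bleomycin, at medians of 10747.5 and 2273 UMIs per cell, and 83.9% and 64.2% after thinning, which left out 72 and 2826 shallower cells. In the barcodes of other cell types, which should lack Itga8, it was at most 47.5% after PBS and 30.6% after bleomycin in thinned cells, both in endothelial barcodes (medians of 12562.5 and 2385.5 UMIs), and it was 29.9% in myeloid barcodes after bleomycin. In the single-dose arm the share in remaining FBs was 82.6% after PBS and 77.8% after bleomycin, and 50.1% and 33.0% after thinning, where it was at most 25.5% (endothelial) and 7.79% (B cells) in other types with 10 to 39 barcodes each. FBs were thus above these backgrounds in each library. For Itga1 the thinned share of remaining FBs was 1.75% after PBS and 9.63% after bleomycin in the single-dose arm, and 2.52% and 12.6% in the repetitive arm. In the repetitive arm it was 3.32% in myeloid barcodes after PBS and 12.2% in plasma cell barcodes after bleomycin, so for Itga1 these shares are not read as expression.

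MyoFB-like cells differed from remaining FBs of the same library most in Itga5, Itgb3 and Itga8. In the single-dose bleomycin library 4 of 10 subunits were past the limit upward (against 4.3% of all genes tested) and 1 downward (7.36%), and in the repetitive bleomycin library 3 upward (4.63%) and 1 downward (5.62%). The shares are of genes with at least 50 UMIs, and of the 6 subunits that had as many in the single-dose library 1 was past the limit upward (Itga5) and 1 downward (Itga8), as were 3 and 1 of 9 in the repetitive library. Itga5 stood at 84.6 CPM (72.8 to 97.6) in MyoFB-like cells and 16.1 CPM (13.2 to 19.4) in remaining FBs of the single-dose library, 5.26-fold (4.13 to 6.74). Its log2 ratio there, 2.33, was 1.08 to 2.39 over the alternative settings. In the repetitive library Itga5 stood at 67.9 and 24.4 CPM, 2.78-fold (2.46 to 3.13), and where each cell counted equally its log2 ratio was 0.94, short of the limit. Itgb3, whose product pairs with αv, stood at 12.3 and 1.12 CPM in the repetitive library, 11.0-fold (7.46 to 16.4), and at 9.09 CPM (20 UMIs) and 1.34 CPM (9 UMIs) in the single-dose library, 6.79-fold (2.96 to 16.9). Both genes were higher in the MyoFB-like cells of both bleomycin libraries. The 8 endothelial markers summed to 198 CPM in MyoFB-like cells and 83.9 CPM in remaining FBs of the single-dose library. Ramp2 alone was at 57.3 and 62.0 CPM there, so the higher sum in MyoFB-like cells lay in the other endothelial markers. In the repetitive library the 8 markers went the other way, at 32.2 and 42.3 CPM. The part of endothelial RNA in the Itga5 and Itgb3 ratios was not tested in either library.

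Itga8 was lower in those cells. It stood at 31.8 CPM (24.8 to 40.2) in MyoFB-like cells and 214 CPM (204 to 226) in remaining FBs of the single-dose library, 6.74-fold lower (5.30 to 8.70), and at 207 and 694 CPM in the repetitive library, 3.35-fold lower (3.16 to 3.56). Where each cell was instead assigned by its own marker UMIs, these log2 ratios were −0.54 and −0.77 in place of −2.71 and −1.74, short of the limit, so this difference rests on classes made from clusters. Itga1 was not lower in the same way, at 43.6 and 50.4 CPM in the single-dose library (0.865-fold, 0.683 to 1.09) and at 132 and 74.9 CPM in the repetitive library (1.77-fold, 1.63 to 1.92). Itga11 was at 5.70 and 2.09 CPM in the repetitive library (log2 ratio 1.12), and at −0.12 where each cell counted equally. Itga11 and Itga3 also passed the limit in the single-dose library, at 1.10 and 1.14, on 6 and 7 UMIs in the MyoFB-like cells. Itgav (0.72 and 0.34), Itgb5 (0.32 and 0.66) and Itgb1 (0.38 and 0.10) were on the higher side by less than the limit in both libraries, given as log2 ratios for the single-dose and then the repetitive library. Without cells carrying 3 or more UMIs of markers of other cell types, Itgav in the single-dose library was at −0.14 and Itgb1 in the repetitive library at −0.02. This left 33 MyoFB-like and 218 remaining cells in the single-dose library, and 288 and 4863 in the repetitive one.

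**Figure D2:**
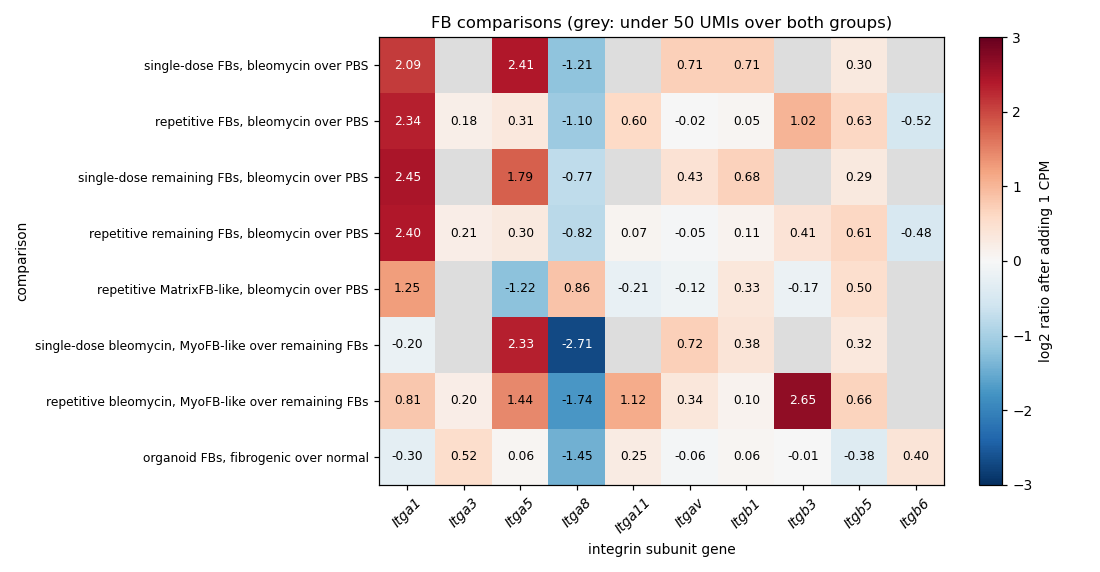
Log2 ratios of the 10 subunits after adding 1 CPM, with comparisons in rows, subunits in columns, color from blue (lower) to red (higher) and grey for subunits with under 50 UMIs over both groups. Itga1 is red in the lung comparisons of bleomycin with PBS that had at least 50 UMIs (2.09, 2.34, 2.45, 2.40 and 1.25) and pale in organoid FBs (−0.30), and Itga8 is blue in each comparison with at least 50 UMIs except MatrixFB-like cells of the repetitive arm (0.86).

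MatrixFB-like cells of the repetitive arm had another pattern. Itga1 was higher after bleomycin, at 36.7 CPM (33.3 to 40.3) and 14.9 CPM (11.5 to 18.9), 2.47-fold (1.91 to 3.25), which made 1 of 10 subunits against 3.98% of all genes. Itga5 was lower, at 37.5 CPM (34.1 to 41.1) and 88.7 CPM (80.2 to 97.8), 2.37-fold (2.06 to 2.71), 1 of 10 against 1.63%. With coarser clusters and with cells assigned by their own marker UMIs the log2 ratio of Itga1 was 0.98 and 0.94, short of the limit, and with coarser clusters that of Itga5 was −0.99. Itga8 was at 94.3 and 51.4 CPM, a log2 ratio of 0.86 that ranged from −0.20 to 1.30 over the alternative settings. The class consisted of clusters F, J and K, and their shares differed: cluster F gave 73 PBS and 977 bleomycin cells, J gave 287 and 377, and K gave 195 and 320. Within cluster J Itga5 was at 91.4 CPM after PBS and 19.2 CPM after bleomycin, within K at 108 and 80.0 CPM, and within F at 18.2 and 19.7 CPM. Hence Itga5 was lower after bleomycin in J and, by less than the limit, in K, and in F it was low in both libraries. With finer clusters, Mmp23 and Penk, both among the leading genes of J, led separate clusters. These held 86 PBS and 297 bleomycin cells (Mmp23) and 205 and 92 cells (Penk), so the makeup of J may also differ between the libraries. Itga8 was at 65.2 and 144 CPM in F, at 56.5 and 24.1 CPM in J and at 43.4 and 24.6 CPM in K, so that F went one way and J and K the other.

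In cluster F of the single-dose arm 3 subunits had at least 50 UMIs. Itgav was at 81.0 CPM (62.0 to 104) after bleomycin and 36.4 CPM (19.4 to 62.2) after PBS, a 2.23-fold difference (1.21 to 4.42). Its log2 ratio, 1.13, was 0.57 to 1.30 over the alternative settings and past the limit in 10 of 12 of them. Counted over all 10 subunits, 4 were past the limit upward (5.62% of all genes) and 1 downward (4.49%), and of these only Itgav had that many UMIs. Itgb1 was at 189 and 143 CPM and Itgb5 at 162 and 204 CPM, with fold intervals that included no difference.

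Itga11 had its highest level in 1 of the MatrixFB-like clusters, cluster K (leading genes Dpp4, Pcsk6 and Sult1e1) at 37.9 CPM after PBS and 46.9 CPM after bleomycin in the repetitive arm, and between 0 and 14.4 CPM in the other clusters of these libraries. Itga8 was highest in LipoFB-like cells, at 435 CPM in the single-dose PBS library and at 1551 and 1412 CPM in the repetitive PBS and bleomycin libraries, although the last rests on 55 cells. Between the repetitive libraries Itga8 thus differed less in LipoFB-like cells than over all FBs or over remaining FBs. In the 105 mural-like cells of the repetitive bleomycin library, named for smooth muscle genes such as Myh11, it was at 1240 CPM. Itga1 in the unnamed clusters C and I was at 84.6 and 81.0 CPM after repetitive bleomycin, and in the MyoFB-like cluster M at 132 CPM.

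**Figure D3:**
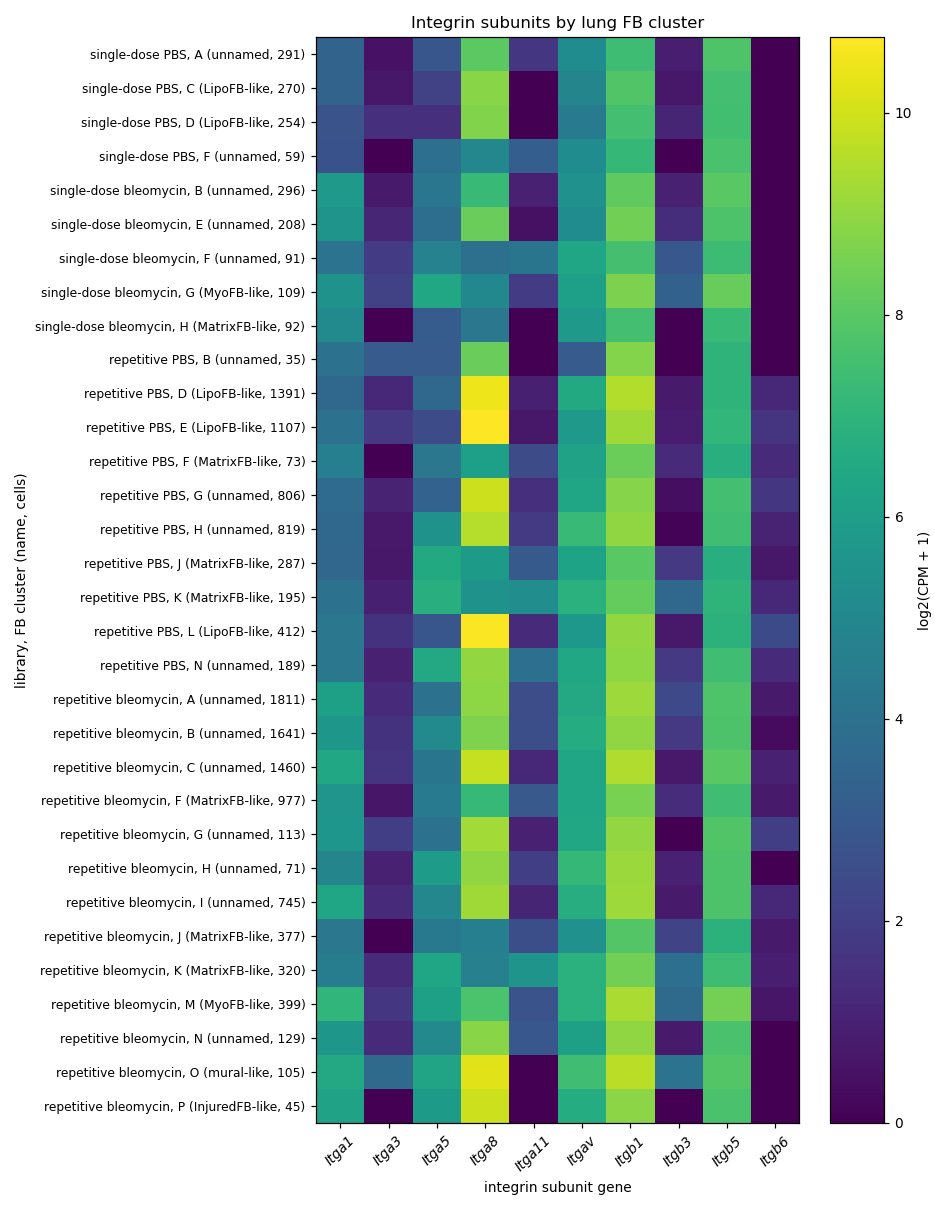
Levels of the 10 subunits as log2(CPM + 1), color scale from 0, for each lung FB cluster with enough cells of a library, with library, cluster, marker-based name and number of cells on the vertical axis. Itga8 is high in LipoFB-like clusters (1551 CPM over all such repetitive PBS cells) and low in MatrixFB-like and single-dose MyoFB-like clusters, while Itga11 peaks in cluster K of the repetitive arm.

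Over 13 groups of lung FBs (class by library, at least 50 cells each), the genes on no list whose levels were most like those of Itga8 were Myh10 (Pearson r 0.98), Aplp2 (0.97) and Upf3b (0.96). For Itga1 they were Kif26b (0.96), Bdnf (0.96) and Slc7a2 (0.95), and for Itga5 they were Tgfb2 (0.90), Uhrf1bp1l (0.90) and Pdcd6ip (0.89). For Itgav they were Rab21, Syncrip and Lpp (0.97, 0.96 and 0.96), for Itgb1 Atp6v1a, Akap6 and Dld (0.96 each), and for Itgb5 Bpgm, Prkar1a and Fam3c (0.90, 0.89 and 0.88). These are the highest of 8294 genes compared, and the groups share 4 libraries and their depths. The other 4 subunits averaged below 10 CPM over the groups and were not compared.

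Of 24 ligands of integrins and latent TGF-β genes, 13 were called higher after single-dose bleomycin and 0 lower, with a median log2 ratio of 1.42 over the 23 with at least 50 UMIs, and in the repetitive arm 12 were higher and 0 lower, with a median of 1.03. The shares of all genes higher were 8.14% and 6.51%, and those lower 3.7% and 1.83%. Since the ligand list was chosen with earlier results of these data known, its counts are a description and no test of enrichment. Among the 3 highest ratios in each arm were those of Spp1, which encodes osteopontin, at 4054 CPM after bleomycin and 0.824 after PBS in the single-dose and 1300 and 1.34 CPM in the repetitive arm, and of Postn, which encodes periostin, at 71.1 and 3.13 CPM and at 45.9 and 2.28 CPM. Tenascin C (Tnc) was at 311 and 12.7 CPM in the single-dose arm, and collagen III (Col3a1) at 5053 and 1230 CPM in the repetitive arm. The ligand with the lowest ratio in both arms was Npnt, which encodes nephronectin, the ligand of the receptor with the Itga8 chain, at 586 and 1100 CPM (log2 ratio −0.91) and at 991 and 1695 CPM (−0.77). It was thus on the same side as Itga8, short of the limit.

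Npnt passed the limit in MyoFB-like cells, at 183 CPM against 838 CPM in remaining FBs of the single-dose bleomycin library and at 250 against 1345 CPM in the repetitive one (log2 ratios −2.19 and −2.42). In the same comparison Postn (205 and 10.7 CPM, 268 and 12.4 CPM), Spp1 (15813 and 1048 CPM, 8803 and 678 CPM) and Tgfb1 (310 and 60.4 CPM, 133 and 32.7 CPM) had the 3 highest ratios. Of the 24 ligand genes 4 were higher and 3 lower in MyoFB-like cells of the single-dose library, and 5 were higher and 1 lower in the repetitive one, against 4.3% and 7.36% and then 4.63% and 5.62% of all genes. Tgfb1 encodes the cytokine that αv integrins release from its latent complex.

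Most genes of the adhesion complex inside the cell differed by less than the limit. Of 24 such genes 2 were higher and 2 lower after single-dose bleomycin, and 1 higher and 2 lower in the repetitive arm, with medians of 0.10 and 0.08. Of all genes 8.14% were higher and 3.7% lower in the single-dose and 6.51% and 1.83% in the repetitive arm, so the numbers higher were near or below these shares and the numbers lower above them. Actn1, an actin cross-linker, was higher in both arms, at 215 and 80.1 CPM and at 164 and 66.4 CPM. Tns1, a tensin that binds β chains, was lower in both, at 245 and 748 CPM and at 331 and 756 CPM. Fermt2, a kindlin, was at 324 and 654 CPM in the repetitive arm (log2 ratio −1.01). Among the other 16 subunits none of the 3 with at least 50 UMIs was past the limit in single-dose FBs, and in repetitive FBs Itga2 (8.61 and 1.21 CPM) and Itgb8 (62.5 and 23.3 CPM) were higher. Itgb8 encodes another β chain that pairs with αv.

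In the organoids 4520 barcodes of the fibrogenic and 1996 of the normal library fell in the FB class after 2 weeks of culture. Of its clusters 8 had epithelial or AEC2 markers such as Sftpc among their leading genes, and they held 919 fibrogenic barcodes (median 1341 UMIs) and 7 normal ones, with 1.15% and 0.483% of the UMIs of the class. Itga8 was the only subunit past the limit, at 8.41 CPM (7.96 to 8.89) in fibrogenic and 24.7 CPM (23.8 to 25.6) in normal organoids, 2.94-fold lower (2.75 to 3.14), 1 of 10 against 0.757% of all genes, and 0 were higher against 0.269%. In cluster C, where Itga8 was among the leading genes, it was at 29.8 and 71.0 CPM. Cluster C held 229 fibrogenic and 403 normal cells. Other clusters were also unevenly shared, such as B (866 and 33) and M (23 and 195), so the makeup of the class differed between the libraries. Itga1 was at 26.4 and 32.8 CPM (0.804-fold, 0.769 to 0.841), Itga5 at 74.3 and 71.0 CPM, Itgav at 105 and 110 CPM, Itgb1 at 481 and 462 CPM, Itgb3 at 12.7 and 12.8 CPM and Itgb5 at 199 and 258 CPM. Itga11 was at 11.0 and 9.05 CPM, Itga3 at 2.73 and 1.60 CPM and Itgb6 at 2.07 and 1.33 CPM. The values are for fibrogenic and then normal organoids, and apart from Itga8 the subunits differed by less than the limit. The 8 epithelial markers summed to 598 CPM in fibrogenic and 472 CPM in normal organoid FBs, led by Sftpc. With the 8 clusters left out, an alternative chosen after seeing the data, the sums were 389 and 374 CPM. Itga8 was then at 8.44 and 24.8 CPM (log2 ratio −1.45) and was again the subunit past the limit, and Itgb6 was at 1.79 and 1.34 CPM. Since the 8 clusters held so few of the UMIs, leaving them out could hardly move the Itga8 ratio. Without FBs with 3 or more UMIs of endothelial or blood cell markers, a list with Lyz2, which was at 5917 and 5457 CPM in the organoid epithelium, the log2 ratio of Itga8 was −1.09 over the 2539 and 832 cells left.

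The epithelium of the organoids gave 2165 cells in the fibrogenic and 1964 in the normal library. None of the 10 subunits was past the limit between them, against 0.19% of all genes higher and 0.129% lower, and the median over the 9 subunits with at least 50 UMIs was 0.26, against 0.04 for all genes. Itgb3 was at 27.5 CPM (26.1 to 28.8) in fibrogenic and 16.4 CPM (15.6 to 17.3) in normal organoids, 1.67-fold (1.55 to 1.80). Itgb6, whose product pairs with αv in epithelium, was at 169 CPM (165 to 172) and 115 CPM (113 to 117), 1.47-fold (1.43 to 1.51). Both intervals lay above no difference, but the size depended on the cells counted: the log2 ratio of Itgb6 was 0.55 here, 0.20 with each cell counted equally and −0.01 over every barcode, and that of Itgb3 was 0.71, 0.52 and 0.22 in that order. Itgav was at 143 and 122 CPM, Itgb1 at 277 and 238 CPM and Itga3, an epithelial laminin receptor chain, at 45.5 and 37.8 CPM. Itga1 (6.39 and 6.62 CPM), Itga5 (7.03 and 5.19 CPM), Itgb5 (10.9 and 8.54 CPM), Itga11 (1.33 and 1.43 CPM) and Itga8 (0.149 and 0.224 CPM) were lower in level than in the FBs of the same library.

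Marker genes divided this epithelium into AEC2-like cells (693 normal, 500 fibrogenic), AEC1-like cells with markers of flat alveolar type 1 cells (219 and 172), PATS-like cells with Krt8, Cldn4, Sfn and other markers of the pre-alveolar type 1 transitional state (180 and 251), cycling cells (224 and 136) and unnamed cells. The AEC2-like class came from cluster A, with 515 normal and 134 fibrogenic cells, and cluster B, with 178 and 366, so its makeup differed between the libraries. Cluster H, with 68 normal and 226 fibrogenic cells, had 6 of 8 PATS markers raised at a median of 1616.5 UMIs. It was shallow with no PATS marker among its leading genes, so it was left unnamed and is not in the PATS-like class. In normal organoids 5 of 10 subunits were higher in AEC1-like than in AEC2-like cells (against 10.5% of all genes) and 1 was lower (8.29%). In fibrogenic organoids 3 were higher (9.39%) and 1 lower (9.2%). Itgb6, Itgb3 and Itga3 were higher in both libraries, Itgb5 and the sparse Itga11 in normal organoids, and Itga1 was lower in both. The log2 ratio of Itga11, 1.01, was 0.41 to 1.52 over the alternative settings and past the limit in 6 of 11 of them, and that of Itgb5, 1.25, was past it in 10 of 11. In PATS-like against AEC2-like cells 7 were higher in each library (18.5% and 15.8% of all genes) and 1 lower (11.2% and 10.7%).

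Itgb6 stood at 17.2 CPM (15.8 to 18.6) in AEC2-like, 472 CPM (457 to 487) in PATS-like and 498 CPM (481 to 515) in AEC1-like cells of normal organoids. In fibrogenic organoids it stood at 25.3 CPM (23.3 to 27.4), 470 CPM (458 to 483) and 546 CPM (527 to 566). AEC1-like cells were thus 29.0-fold (26.6 to 31.7) and 21.6-fold (19.8 to 23.6) above AEC2-like cells, and PATS-like cells 27.5-fold (25.2 to 30.1) and 18.6-fold (17.1 to 20.2). Cycling cells, at 33.1 and 38.6 CPM, stood above AEC2-like cells and below both other classes. After thinning to 2000 UMIs an Itgb6 UMI was found in 3.26% of normal AEC2-like, 56.0% of PATS-like and 55.9% of AEC1-like cells, and in 0.197% of the FBs, against 46.2%, 97.8%, 92.2% and 3.56% before thinning at medians of 45440, 40433.5, 28820 and 50893 UMIs.

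Itgb3, another β partner of αv, was at 1.49 CPM in AEC2-like, 98.5 CPM in PATS-like and 37.7 CPM in AEC1-like cells of normal organoids and 2.49, 94.4 and 64.6 CPM in fibrogenic ones. Here PATS-like cells were the highest, 66.3-fold (49.9 to 89.8) and 38.0-fold (29.2 to 50.2) above AEC2-like cells. Itga3 stood at 15.8 CPM in AEC2-like, 119 CPM in PATS-like and 102 CPM in AEC1-like cells of normal organoids, and at 16.6, 115 and 101 CPM in fibrogenic ones. It was therefore 7.50-fold (6.75 to 8.35) higher in PATS-like and 6.44-fold (5.75 to 7.22) higher in AEC1-like than in AEC2-like cells of normal organoids.

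Itga5, Itgb1, Itgav and Itgb5 were highest in PATS-like cells. Itga5 was at 32.1 CPM in them and at 1.28 CPM in AEC2-like and 2.21 CPM in AEC1-like cells of normal organoids, and at 25.4, 2.06 and 1.66 CPM in fibrogenic ones. Itgb1 was at 831, 148 and 263 CPM and at 685, 152 and 268 CPM in the same order. Itgav was at 275, 114 and 86.8 CPM and at 262, 124 and 79.9 CPM in that order, and its log2 ratios of AEC1-like over AEC2-like cells, −0.39 and −0.62, were below 0 without reaching the limit. Itgb5 was at 31.0, 3.99 and 10.9 CPM and at 21.4, 6.74 and 12.5 CPM. Itga1 went the other way, at 8.62 CPM in AEC2-like, 1.35 CPM in PATS-like and 0.736 CPM in AEC1-like cells of normal organoids, 11.7-fold lower (4.97 to 36.4) in AEC1-like cells.

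**Figure D4:**
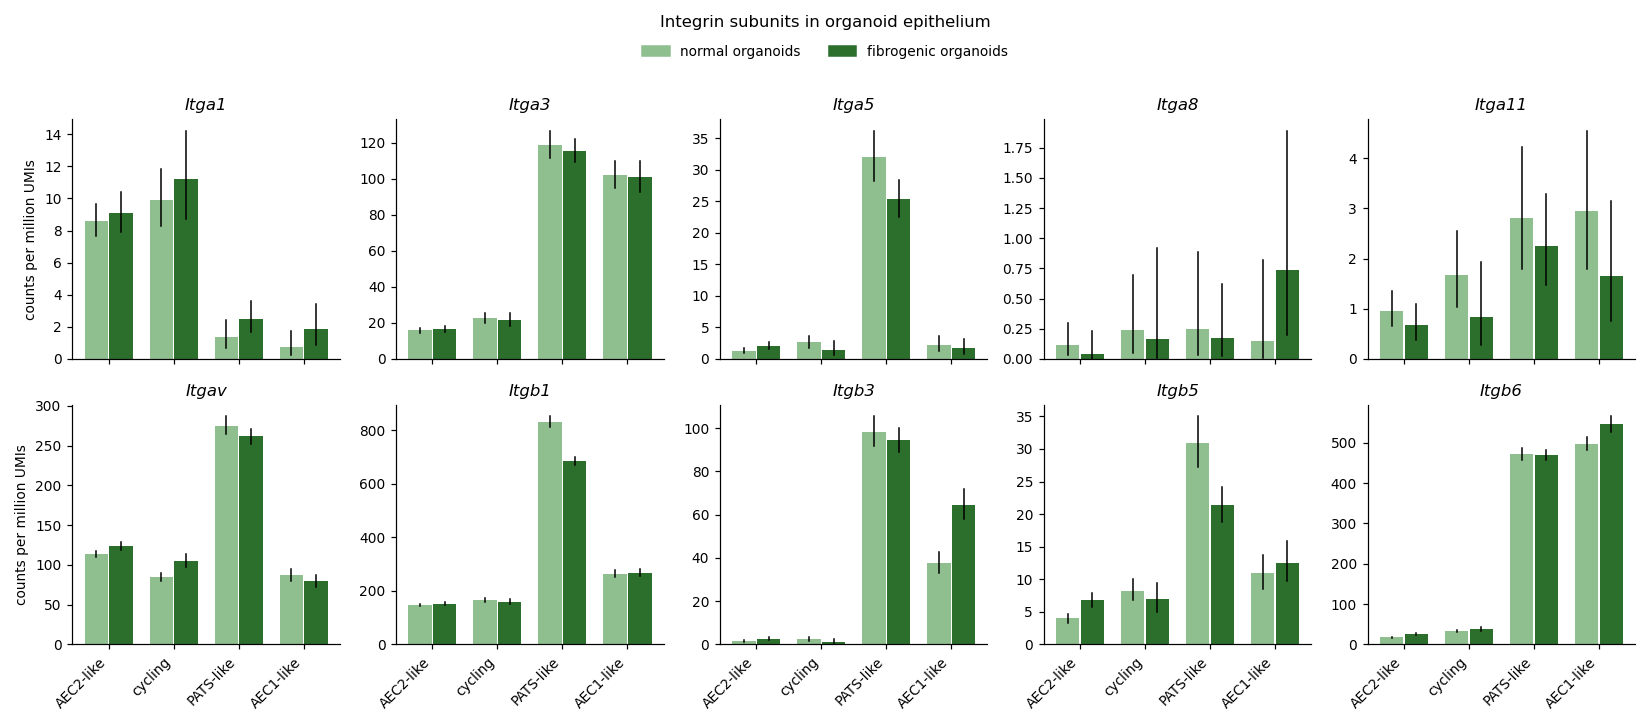
Levels of the 10 subunits in 4 classes of organoid epithelium, in CPM on a linear axis that starts at 0 and differs between panels, for normal (light) and fibrogenic (dark) organoids. Bars are 1 library each and black lines are exact 95% Poisson intervals. Itgb6 is at 470 to 546 CPM in PATS-like and AEC1-like cells and at 17.2 to 38.6 CPM in AEC2-like and cycling cells, and Itgb3, Itga5 and Itgb1 peak in PATS-like cells in both libraries.

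Unnamed epithelial cells, such as those of clusters C (97 normal and 418 fibrogenic) and F (260 and 107), were left out of the comparison by class. Within each named class the libraries differed by less than the limit for every subunit. In AEC2-like cells 0 of 10 were past it (against 0.396% of all genes higher and 0.238% lower), as in AEC1-like (0.179% and 0.378%), PATS-like (0.774% and 0.468%) and cycling cells (0.192% each way). Itgb6 was 1.48-fold (1.31 to 1.66) higher in fibrogenic AEC2-like cells and 0.996-fold (0.956 to 1.04) in PATS-like cells. Itgb3 was 1.71-fold (1.46 to 2.02) higher in fibrogenic AEC1-like cells.

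Among ligand genes in PATS-like against AEC2-like cells 11 of 24 were higher and 1 lower in normal organoids, where Ltbp1, a latent TGF-β binding protein, stood at 245 and 0.816 CPM, Fn1, which encodes fibronectin, at 3024 and 29.0 CPM, and Tnc at 124 and 3.29 CPM. In fibrogenic organoids 10 were higher and 0 lower. Of all genes 18.5% were higher and 11.2% lower in normal and 15.8% and 10.7% in fibrogenic organoids. Of the adhesion genes 11 of 24 were higher and 1 lower in each library, led by Fermt1, an epithelial kindlin, at 191 and 0.0874 CPM and at 123 and 0.0421 CPM, and by Actn1 at 1009 and 46.9 CPM in normal organoids. Of the other subunits Itga2 (230 and 4.92 CPM) and Itgb4 (51.8 and 0.554 CPM) were higher and Itga7 (2.45 and 26.9 CPM) and Itga9 (93.6 and 317 CPM) lower in normal organoids. In AEC1-like against AEC2-like cells Npnt was the ligand with the highest ratio, at 106 and 7.28 CPM in normal and 91.9 and 5.01 CPM in fibrogenic organoids.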

How the data were processed

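Droplet single-cell libraries were counted by the authors with Cell Ranger 3.0.1 on build mm10, per the labels, and Seurat 3 is named beside it. The deposited values are raw UMI counts per gene and barcode in 6 tables, 1 per library, with 3 mice pooled in each. All columns of values were mapped to a sample (0 left out).

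Barcodes with high mitochondrial or erythrocyte shares were removed (53 to 1086 per library). Cells were clustered by Leiden (igraph 0.11.9, resolution 1) on 2000 variable genes without integrin, ligand and adhesion genes, with 30 components and 20 neighbours. Cell types and FB classes were called from fixed marker lists. A shallow cluster with no marker of its class among its leading genes was left unnamed. The baseline for naming (pooled cells for FBs, the mean over clusters for organoid epithelium), the limits for cell types and the use of single-dose cluster F in place of the MatrixFB-like class were set after the tables had been seen. Scrublet (scanpy 1.11.5) marked 0 to 18 barcodes per library, too few to have worked, so doublets were in effect kept.

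All counts of a gene in a group and library were added up, and each log2 ratio was computed with 1 CPM added to both levels. Intervals are 95% and cover counting error only. No p-value was computed, since each condition had 1 library. The sums and intervals were checked on counts simulated for the single-dose FBs with counting error only. That check holds no variation between cells, mice or libraries and says nothing about it. The subunits and lists were chosen with earlier results of these data known. All 10 subunits are named always, and of each list (24 ligands, 24 adhesion genes, 16 other subunits) up to the 3 highest and 3 lowest ratios with at least 50 UMIs. Promoter windows are from RefSeq, GRCm38.p6, and gene names are those of the tables. Protein sequences were not used here.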

Additional observations from a re-analysis of the deposited data

Results flagged for a closer look

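Several subunits went in opposite directions under matched contrasts, with each counting interval on its own side of no difference. None of these differences was tested, since each condition had 1 library.

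Between lung FBs (bleomycin over PBS) and organoid FBs (fibrogenic over normal), the log2 ratio of Itga1 was 2.09 in the single-dose and 2.34 in the repetitive arm and −0.30 in organoids. For Itgb5 it was 0.30 and 0.63 in the lung arms and −0.38 in organoids. For Itgav it was 0.71 in the single-dose arm and −0.06 in organoids, where it was −0.08 to 0.03 over the alternative settings and above 0 with each cell counted equally. For Itgb6, at 0.938 to 2.07 CPM, it was −0.52 in the repetitive arm and 0.40 in organoids, where it was 0.25 without the FB clusters led by epithelial or AEC2 markers (919 fibrogenic and 7 normal barcodes) and 2.33 with each cell counted equally. The organoid FBs had been in culture for 2 weeks beside epithelium.

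Within the repetitive arm Itga8 had a log2 ratio of −0.82 in remaining FBs and 0.86 in MatrixFB-like cells, the second being −0.20 to 1.30 over the alternative settings, and Itga5 had 0.30 and −1.22. Within the organoid epithelium (fibrogenic over normal) Itga5 had 0.43 in AEC2-like and −0.33 in PATS-like cells, and Itgb5 had 0.63 and −0.51. The AEC2-like and MatrixFB-like classes, the remaining FBs and the organoid FBs drew on clusters in different shares in the libraries compared.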

How the results depend on the processing

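No paired analysis was possible because the labels give the conditions no shared replicate numbers, each condition having 1 library, and no library could be left out within an arm. A fit over both lung arms with the arm as a term was not run. Of 348 recomputed counts of subunits past the limit 315 stayed within 1.5 times and 33 moved, and of 1378 recomputed log2 ratios 1181 moved by no more than counting error, 196 moved further and 1 past the limit changed sign, that of Itga11 in repetitive MyoFB-like cells (1.12, and −0.12 with each cell counted equally). Counted by ratio, 25 of 111 changed sign under at least 1 alternative, and 1 of these was among the 45 past the limit. Counting subunits with at least 50 UMIs used the same cells, so it could not move a ratio. Leaving out the barcodes that Scrublet marked removed 0 to 18 per library and could hardly do so. Both are among the alternatives counted for each ratio, so the numbers that stayed overstate how far the ratios were put to the test. The causes were not tested.

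With 5 CPM added in place of 1, the number higher was 2 in place of 4 in single-dose MyoFB-like cells and in cluster F, 1 in place of 2 in repetitive FBs and 3 in place of 5 in normal AEC1-like cells, and the number lower was 0 in place of 1 in cluster F and in fibrogenic PATS-like cells. With 0.1 CPM added it was 5 higher in place of 3 in fibrogenic AEC1-like cells. With each cell counted equally it was 1 higher in place of 2 in repetitive FBs and in place of 3 in repetitive MyoFB-like cells, 2 in place of 1 in MatrixFB-like cells, 1 in place of 0 in organoid epithelium and 2 in place of 0 in organoid FBs, and 1 lower in place of 0 in repetitive remaining FBs. Without FBs carrying 3 or more UMIs of markers of other cell types it was 0 lower in place of 1 in single-dose FBs, 2 lower in place of 1 in single-dose MyoFB-like cells (33 of 109 cells left), 1 higher in place of 2 in repetitive FBs and 2 in place of 1 in MatrixFB-like cells. Assignment by each cell's own markers gave 1 lower in place of 0 in single-dose remaining FBs, 0 lower in place of 1 in MyoFB-like cells of both arms and 0 higher in place of 1 in repetitive MatrixFB-like cells. With no mitochondrial or erythrocyte filter it was 2 higher in place of 4 in single-dose MyoFB-like cells, 1 in place of 2 in repetitive FBs and 2 in place of 1 in MatrixFB-like cells. At Leiden resolution 0.5 MatrixFB-like cells had 0 higher and 0 lower in place of 1 each, and with pathway genes kept in the clustering cluster F had 0 lower in place of 1. Counting subunits with at least 50 UMIs left 1 higher in place of 4 in single-dose MyoFB-like cells and in cluster F and 0 lower in place of 1 in cluster F. Over every barcode it was 1 higher in place of 2 in repetitive FBs and 1 lower in place of 0 in the organoid library, and centring on all genes gave 1 higher in place of 2 in repetitive FBs. The subunit lost in repetitive FBs was Itgb3 each time.

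Leaving out FB clusters led by epithelial or AEC2 markers, chosen after seeing the data, kept the 2 higher and 1 lower in single-dose FBs and the 1 lower in organoid FBs, and no repetitive cluster met that rule. In the single-dose arm the rule left out cluster A, with 291 PBS and 11 bleomycin cells. The epithelial markers still summed to 757 CPM in the PBS cells kept and 95.5 CPM in the bleomycin cells kept. In that arm it therefore could not show the part of epithelial RNA. In organoid FBs the rule left out 1.15% of the fibrogenic and 0.483% of the normal UMIs, so it could hardly move the Itga8 ratio. The epithelial markers still summed to 389 and 374 CPM in the organoid FBs kept. Over all alternatives the log2 ratio of Itga1 in FBs was 0.64 to 2.33 in the single-dose and 1.00 to 2.41 in the repetitive arm, and that of Itga8 was −1.39 to −0.94 and −1.21 to −1.04. The 0.64 was over every barcode, where Itga1 fell short of the limit. Leaving out other-type UMIs was not run for cluster F or for the organoid classes set against AEC2-like cells, where too few cells were left, and its marker list holds Lyz2, which AEC2s also use, so that in organoid epithelium it left 753 of 2165 fibrogenic and 462 of 1964 normal cells. Depth limits Itga3, Itga11, Itgb3 and Itgb6 in lung FBs, and small differences rest on 1 library each.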
